A study of Mus musculus with 2 samples.

Results

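The genes of oxidative phosphorylation were followed in immune cells of 143B tumors, a human osteosarcoma cell line grown under the skin of nude mice. Members were chosen by symbol: all genes whose names start with Nduf, Uqcr, Atp5, Cox4, Cox5, Cox6, Cox7 or Cox8, the genes Sdha, Sdhb, Sdhc and Sdhd, and the protein genes of the mitochondrial genome. This gave 107 of the 32285 genes measured, of which 94 lie in the nucleus and 13 in mitochondrial DNA. Of the nuclear members 85 encode subunits of the complexes, and the other 9 are 8 Ndufaf assembly factors of complex I and Cox7a2l, a factor that joins complexes into supercomplexes. The tumors were treated with control IgG, a human IgG1 isotype, or with anti-CD3L1, an antibody against CD3L1 (also called ITPRIPL1), a ligand of CD3. Both were given to female nude mice, 4 weeks old at the start, at 10 mg/kg every 3 days for 4 doses, and the groups share the strain, the tumor line, the dose and the schedule. Nude mice lack a thymus and so have few T cells, and the tumor cells were human, whereas the matrices hold mouse genes only, and reads of human RNA in them were not tested for. Cells carrying CD45, a surface protein of blood cells, were sorted with magnetic beads, and 3 tumors were pooled into 1 droplet library per treatment. Each group is thus 1 library without replicates: no test between the treatments was possible, no p-value is given, and every interval is a 95% interval that covers counting error only.

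Complexes I to IV of the inner mitochondrial membrane pass electrons from NADH and succinate to oxygen, and all of them but complex II pump protons as they do so. Complex V, the ATP synthase, then uses the returning protons to make ATP. Mitochondrial DNA encodes core subunits of complexes I, III, IV and V, while the nucleus encodes the remaining subunits, all of complex II and the assembly factors, so that both genomes supply every complex but complex II. Neutrophils are known for relying largely on glycolysis and for having few mitochondria, whereas monocytes, macrophages and NK cells respire.

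The control IgG library held 74850604 unique molecular identifiers (UMIs, 1 for each RNA molecule counted) and the anti-CD3L1 library 108246719. Barcodes with at least 500 UMIs, more than 200 and fewer than 6000 genes and less than 5% mitochondrial UMIs were taken as cells, which left 8557 cells with a median of 5526 UMIs under control IgG and 11269 cells with a median of 8267 UMIs under anti-CD3L1. The libraries shared 26 of these barcodes. Cells were put into classes by marker genes that include no member, and 9 classes with at least 10 cells in each library are described. In the control IgG and anti-CD3L1 libraries these were 5680 and 574 neutrophil-like, 1299 and 3099 monocyte-like, 632 and 4065 macrophage-like, 149 and 807 NK-like, 45 and 221 ILC-like, 17 and 167 pDC-like, 20 and 231 cDC1-like, 17 and 232 cDC2-like, and 11 and 144 mature DC-like cells (ILC, innate lymphoid cell; DC, dendritic cell; pDC, plasmacytoid DC; cDC, conventional DC). A class was cut from a score per cell and is a range rather than a type: between 0 and 35.3% of its cells lay within 0.05 of the cut. In cDC1-like, cDC2-like and pDC-like cells the UMIs of all other classes' markers together exceeded those of their own markers in median. Under control IgG these were 29 against 7 in cDC1-like, 45 against 25 in cDC2-like and 65 against 49 in pDC-like cells. Ptprc, the gene of CD45, was found in all 9 classes, at 292 to 1905 CPM (counts of a gene per 1000000 UMIs of the class). The number of cells thus differed widely, and only neutrophil-like, monocyte-like, macrophage-like and NK-like cells had at least 100 in each library.

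Neutrophil-like cells carried the least oxidative phosphorylation RNA of all 9 classes. The 85 nuclear subunit genes took 0.472% of all UMIs in neutrophil-like cells under control IgG (0.470 to 0.474) and 0.734% under anti-CD3L1 (0.721 to 0.747). In macrophage-like cells they took 1.52% and 1.67%, in monocyte-like cells 1.65% and 1.72%, and in NK-like cells 1.61% and 1.70%. Neutrophil-like cells were therefore 3.23-fold below macrophage-like cells under control IgG and 2.27-fold below them under anti-CD3L1. Without cells of over 2 times the median UMIs of their class the gap was wider under anti-CD3L1, with a log2 ratio of -1.89 in place of -1.18. Among the other classes the sum went from 1.16% in ILC-like to 1.65% in monocyte-like cells under control IgG, and from 1.30% in ILC-like to 1.93% in cDC1-like cells under anti-CD3L1. The mitochondrial genes had the same class at the bottom, with 0.397% and 0.688% in neutrophil-like cells, against 1.80% and 1.47% in macrophage-like cells. At the top stood pDC-like cells with 2.61% and 2.14%, although their nuclear sum of 1.23% and 1.31% was among the lower ones.

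**Figure D1:**
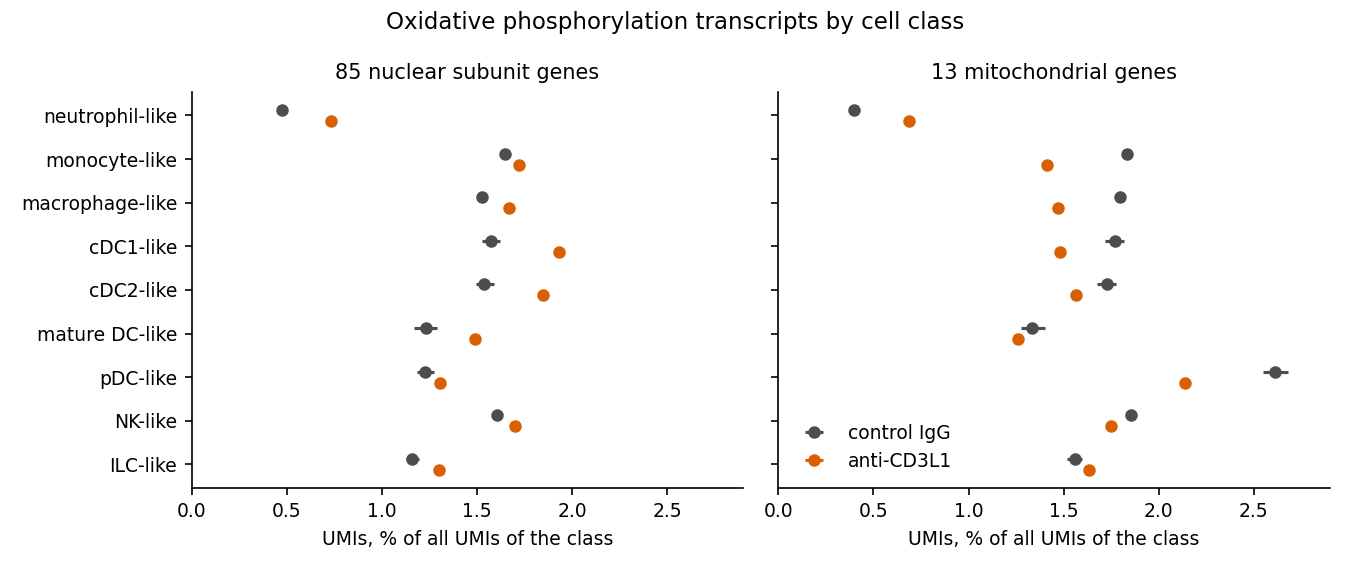
UMIs of the 85 nuclear subunit genes (left) and the 13 mitochondrial genes (right) as a percentage of all UMIs of each class; points are the control IgG (grey) and anti-CD3L1 (orange) libraries and bars are 95% counting intervals. Neutrophil-like cells are lowest in both panels, and pDC-like cells are highest for the mitochondrial genes at 2.61% and 2.14%.

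The low level in neutrophil-like cells ran through every complex. Split by complex and genome, 9 of 9 sums were lowest in neutrophil-like cells under control IgG and 9 of 9 under anti-CD3L1. Of the 95 members with at least 500 UMIs over the 9 classes under control IgG 91 were lowest in neutrophil-like cells, and of 100 under anti-CD3L1 92 were. The exceptions were Ndufa7, Ndufaf3, Ndufaf7 and Ndufs1 under control IgG, and Cox6a2, Cox8a, Ndufa7, Ndufaf6, Ndufaf7, Ndufb9, Sdha and Sdhd under anti-CD3L1. The share of all genes that were lowest in neutrophil-like cells was not counted. Since all genes were shifted down against macrophage-like cells, as given below, these counts are not read as particular to the members. The make-up of the nuclear sum changed little between classes except for complex II. Complex I made up 25.1% to 30.6% of it, complex III 9.08% to 10.6%, complex IV 27.6% to 34.1% and complex V 28.9% to 32.9%. Complex II made up 0.999% to 1.96%. Its share was highest in neutrophil-like cells in each library, at 1.96% under control IgG and 1.85% under anti-CD3L1. The lowest share rested on 16 UMIs in mature DC-like cells under control IgG. Within the mitochondrial sum the complex IV genes mt-Co1, mt-Co2 and mt-Co3, which encode its catalytic core, took 65.9% in neutrophil-like cells under control IgG, against 54.7% in macrophage-like cells. The complex I genes of mitochondrial DNA took 11.5% there, against 17.5%. In the anti-CD3L1 library these shares lay closer together, with 58.9% against 56.6% for complex IV and 16.6% against 17.4% for complex I.

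Levels of single members are given in CPM. A UMI counts a molecule once, so levels were not divided by gene length. Members with near-identical copies, such as Atp5g1, Atp5g2 and Atp5g3 or genes with processed pseudogenes, are uncertain where the counting could split their reads. In complex I the accessory subunits Ndufa2 and Ndufa13 held the most UMIs of its nuclear members. Ndufa2 was at 108 and 145 CPM in neutrophil-like and at 281 and 341 CPM in macrophage-like cells of the control IgG and anti-CD3L1 libraries. Ndufa13 was at 76.4 and 159 CPM and at 233 and 298 CPM in the same order. In complex II, the only complex made without mitochondrial DNA, Sdhb (the iron-sulfur subunit) was at 37.3 and 58.0 CPM in neutrophil-like and 114 and 139 CPM in macrophage-like cells. Sdha, the flavoprotein that oxidizes succinate, was at 23.9 and 46.3 CPM against 60.3 and 62.1 CPM. For complex III, Uqcrh, the hinge subunit, was at 148 and 205 CPM in neutrophil-like cells and between 285 and 485 CPM in the other classes. Uqcrq, another small subunit, was at 113 and 162 CPM in neutrophil-like and 303 and 344 CPM in macrophage-like cells.

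Complex IV and complex V gave the same order with 1 partial exception. Cox4i1, the common isoform of the largest nuclear subunit of cytochrome c oxidase, was at 209 and 436 CPM in neutrophil-like cells and between 516 and 1075 CPM in the other classes. Cox8a, the smallest subunit of the complex, was at 496 and 648 CPM in neutrophil-like and at 676 and 837 CPM in macrophage-like cells, and under anti-CD3L1 pDC-like cells were lower still at 601 CPM. In complex V, Atp5e, the epsilon subunit of its catalytic head, was at 187 and 285 CPM in neutrophil-like and 576 and 610.0 CPM in macrophage-like cells. Atp5l, subunit g of the membrane part, was at 313 and 374 CPM against 487 and 514 CPM, a smaller gap than for Atp5e.

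Member by member, 89 of the 94 nuclear members had at least 20 UMIs over both classes under control IgG, and 87 of these were lower in neutrophil-like than in macrophage-like cells by more than 1.5-fold. Of all genes so tested 64.3% were. In the anti-CD3L1 library 82 of 90 nuclear members were lower, against 47.2% of all genes. All genes were shifted in this comparison, with a median log2 ratio of neutrophil-like to macrophage-like cells of -1.32 under control IgG and -0.48 under anti-CD3L1. The nuclear members lay at a median of -2.04 and -1.25, which is 0.73 and 0.77 below the median of all genes. For the mitochondrial genes the medians were -2.49 and -1.11, and 13 of 13 were below the median of all genes in each library. Genes at 0 UMIs in 1 class were set to 3 counts, which raises them most in the class with fewer UMIs. Under anti-CD3L1 this was the neutrophil-like class, with 1705884 UMIs against 39743796 in macrophage-like cells. Under control IgG it was the macrophage-like class, with 8658640 against 33071440. The part of this setting in the shares and medians of all genes was not tested. Moving with this comparison, S100a8 and S100a9, alarmins of neutrophils, took 16.4% and 7.22% of neutrophil-like UMIs and the 20 most abundant genes 37.6% and 24.0%, against 15.5% and 15.5% for the 20 of macrophage-like cells. Median UMIs per cell were 4556.5 and 2202.5 in neutrophil-like and 13798 and 9538 in macrophage-like cells. The part of these differences in the result was not tested. Different graph clusters also held each class in each library, as given with the comparison of the treatments.

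Among the widest gaps were those of complex I genes. Ndufc2, a small accessory subunit of its membrane arm, was at 11.8 CPM in neutrophil-like and 159 CPM in macrophage-like cells under control IgG (log2 ratio -3.76, -3.92 to -3.59), and at 25.2 and 116 CPM under anti-CD3L1 (log2 ratio -2.21, -2.68 to -1.77). The mitochondrial gene mt-Nd1, which encodes a core subunit of the membrane arm, was at 93.6 against 812 CPM and at 295 against 736 CPM, with log2 ratios of -3.12 and -1.32. By contrast mt-Co1, the catalytic subunit of complex IV, was at 1219 against 3653 CPM and at 1521 against 3027 CPM, with log2 ratios of -1.58 and -0.99. Cox8a, Atp5l and Ndufa7, an accessory subunit of complex I, had narrow gaps in both libraries. Cox8a was at -0.45 (-0.49 to -0.40) and -0.37 (-0.46 to -0.28), Atp5l at -0.64 and -0.46, and Ndufa7 at -0.67 and -0.69. Ndufb9, another accessory subunit of complex I, was at -0.76 and -0.44, and under anti-CD3L1 Sdha was at -0.42. Cox8a, Atp5l, Ndufa7 and Ndufb9 lay above the median of all genes under control IgG, and Cox8a, Atp5l, Ndufb9 and Sdha did under anti-CD3L1. They were among 17 of 89 nuclear members above that median under control IgG and 8 of 90 under anti-CD3L1.

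Ndufaf7 was the only member higher in neutrophil-like than in macrophage-like cells in both libraries. It encodes a methyltransferase needed to assemble complex I and is not a subunit. In neutrophil-like cells it was at 42.8 CPM (1417 UMIs) under control IgG and 15.8 CPM (27 UMIs) under anti-CD3L1. In macrophage-like cells it was at 8.32 CPM (72 UMIs) and 6.72 CPM (267 UMIs), which gives log2 ratios of 2.37 (2.02 to 2.73) and 1.24 (0.61 to 1.81). No other class under control IgG exceeded 15.3 CPM, while under anti-CD3L1 pDC-like cells were at 21.3 CPM, above the neutrophil-like cells. Empty droplets, barcodes of 10 to 100 UMIs that hold free RNA, were at 22.5 CPM under control IgG and 9.79 CPM under anti-CD3L1.

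**Figure D2:**
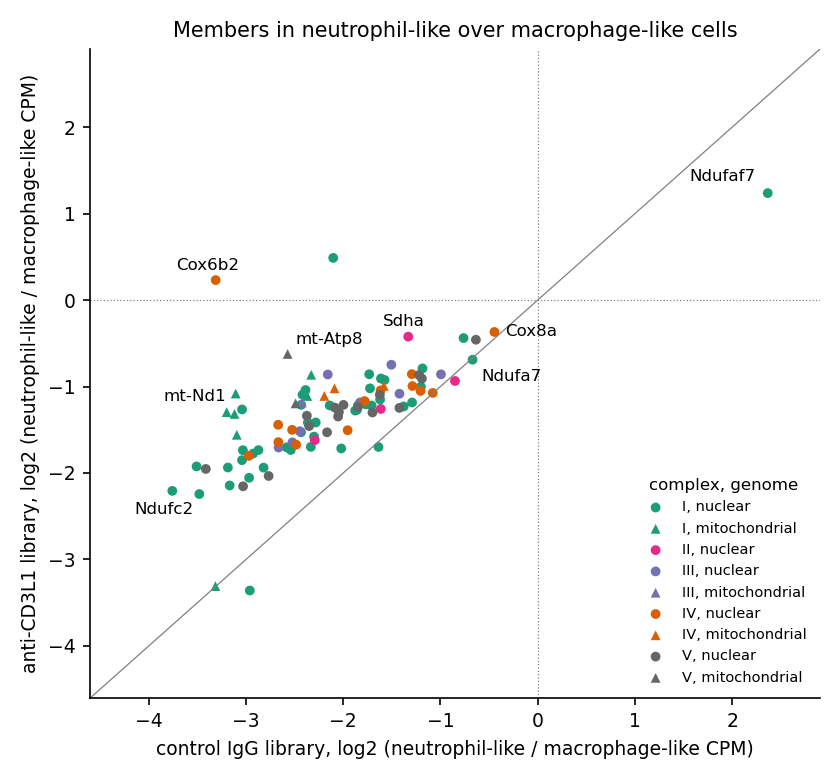
Log2 ratio of CPM in neutrophil-like over macrophage-like cells for each member with at least 20 UMIs over both classes, in the control IgG (horizontal) and anti-CD3L1 (vertical) libraries; colours are complexes, circles nuclear and triangles mitochondrial genes, the solid line marks equal ratios, and members at 0 in neutrophil-like cells are not drawn. Nearly all points lie below 0 on both axes, with Ndufaf7 at 2.37 and 1.24.

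Other genes of mitochondrial energy metabolism, which the symbols do not cover, were set beside the 64.3% and 47.2% of all genes that were lower in neutrophil-like cells. Of 14 citric acid cycle genes, all of which passed the filter, 12 were lower by over 1.5-fold than in macrophage-like cells under control IgG and 10 under anti-CD3L1, with median log2 ratios of -2.30 and -1.32. Of 78 mitochondrial ribosomal protein genes 74 and 71 were lower (-2.70 and -1.61), and of 31 further assembly factors 28 and 24 (-2.34 and -1.28). Of 10 electron carriers and dehydrogenases that feed the chain, 8 and 5 were lower (-2.02 and -0.74). The regulators of mitochondrial transcription were lower in 10 of 14 and 7 of 15 that passed. Of the carriers, uncouplers and supercomplex factors 7 of 11 and 6 of 12 were lower. The last 3 of these lists are short and their shares were near those of all genes, so nothing is read from their counts. A few genes of these lists were higher in neutrophil-like cells in both libraries: Sqor, which oxidizes hydrogen sulfide, Cox17, a copper chaperone of complex IV, Mcu, the calcium channel of the inner membrane, Mrpl33, Mterf1a and AA467197. These 6 were named after their values were seen.

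pDC-like cells carried mostly another isoform of subunit 6A of cytochrome c oxidase than the other classes. Cox6a1 is the isoform found in most tissues, and Cox6a2 is known as the isoform of heart and skeletal muscle. Cox6a2 was at 575 CPM (127 UMIs, 479 to 684) in pDC-like cells under control IgG and at 567 CPM (851 UMIs, 529 to 606) in those under anti-CD3L1. The intervals of the libraries overlapped. In every other class it was at or under 11.5 CPM, which was 3 UMIs in cDC2-like cells under control IgG, although 0 UMIs in mature DC-like cells under control IgG allow up to 23.0 CPM (3 counts). Under control IgG 4 of the other 8 classes were at 0 UMIs, and under anti-CD3L1 2 were. With these set to 3 counts, pDC-like cells were at least 81.0-fold and at least 383-fold above the mean of the other classes, bounds that differ with the depth of the small classes. Cox6a1 was present in all 9 classes, at 68.5 and 100 CPM in neutrophil-like cells and at 145 and 164 CPM in pDC-like cells, with up to 233 and 304 CPM in cDC-like cells. Cox6a2 was above Cox6a1 in pDC-like cells and below it in each of the others.

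Of pDC-like cells 94.1% under control IgG and 88.6% under anti-CD3L1 held at least 1 Cox6a2 UMI, with a mean of 7.47 and 5.10 UMIs per cell. After thinning each cell to 1000 UMIs, which left out 0 and 1 of these cells, 41.2% (18.4 to 67.1) and 40.4% (32.8 to 48.2) did. Among macrophage-like cells 2.37% and 3.03% held a UMI, at median depths of 13798 and 9538 UMIs, and 0.483% and 0.30% did after thinning. Their Cox6a2 level was 1.85 and 3.90 CPM, while the free RNA of empty droplets was at 1.14 CPM (0.31 to 2.92) and 7.45 CPM (5.19 to 10.4). Between the libraries the log2 ratio of Cox6a2 was 1.08 in macrophage-like cells, on 16 and 155 UMIs, and 4.37 in monocyte-like cells, on 1 and 32 UMIs (1.79 to 9.72). The empty droplets were higher under anti-CD3L1 as well, and the part of free RNA in these values was not tested.

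**Figure D3:**
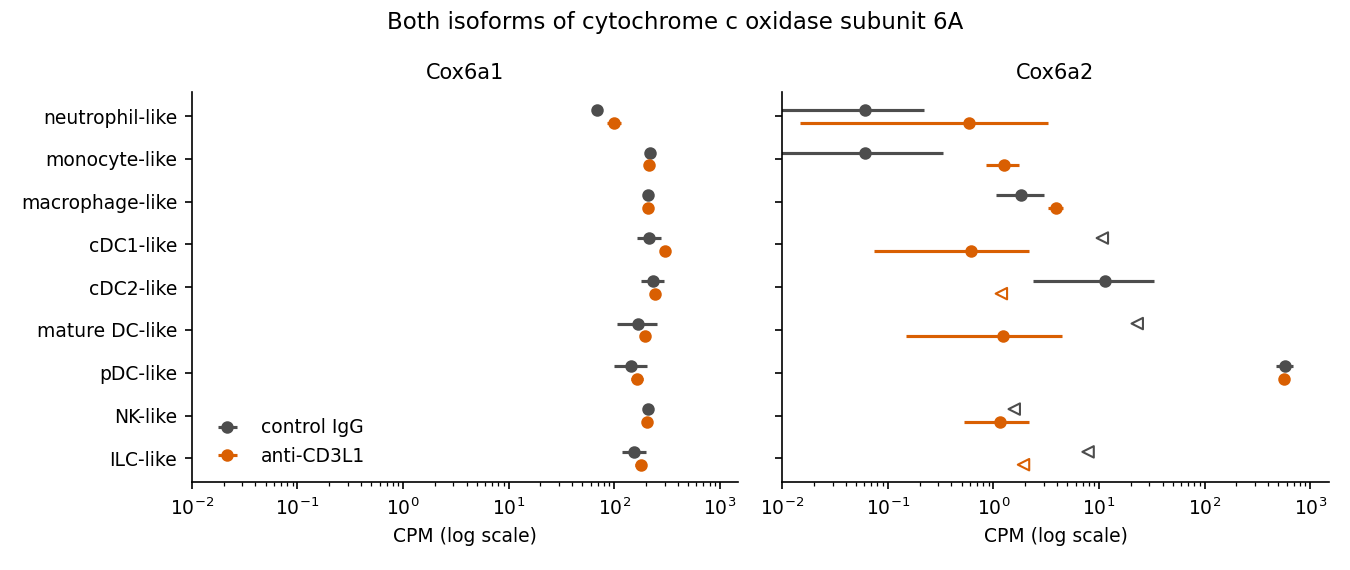
CPM of Cox6a1 (left) and Cox6a2 (right) by class on a logarithmic axis, in the control IgG (grey) and anti-CD3L1 (orange) libraries, with 95% counting intervals; open triangles mark the level of 3 UMIs where none was counted. Cox6a2 is at 575 and 567 CPM in pDC-like cells and at or under 11.5 CPM elsewhere.

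The other members with the largest fold over the mean of the other classes, in both libraries, stood out less. Ndufa6, an accessory subunit of complex I, was at 391 and 369 CPM in cDC1-like and 348 and 341 CPM in cDC2-like cells, and its folds were 2.46 and 2.25 in the first and 2.12 and 2.04 in the second class. Ndufaf4, an assembly factor of complex I, was at 29.4 and 24.6 CPM in NK-like cells, at least 2.21-fold above the others under control IgG, where mature DC-like cells were at 0 UMIs and set to 3 counts, and 1.98-fold under anti-CD3L1, although pDC-like cells reached 32.6 CPM under anti-CD3L1. Ndufb1-ps, an accessory subunit gene that carries a pseudogene symbol in this annotation, was at 392 and 250 CPM in monocyte-like cells, 1.82-fold and 1.51-fold. Under anti-CD3L1 cDC2-like cells were higher in it, at 260 CPM. Uqcrh in mature DC-like cells (469 and 484 CPM, 1.33-fold and 1.30-fold) and mt-Nd2 in ILC-like cells (789 and 867 CPM, 1.20-fold and 1.47-fold) differed little from other classes. In macrophage-like cells the gene was Cox4i2, the isoform of Cox4i1 known from lung and from low oxygen, but it reached only 3.46 CPM (30 UMIs) and 1.71 CPM (68 UMIs), and 5 and 2 of the other classes were at 0 UMIs.

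Isoforms known from single tissues were otherwise rare. Cox8c, an isoform of testis, had 0 UMIs in all kept cells, which allows up to 3 counts in each library. Cox7b2 and Cox8b had 1 UMI each, and Ndufa4l2, which low oxygen is known to induce, had 2 and 66 UMIs under control IgG and anti-CD3L1. Cox6b2 and Cox7a1, known from testis and from muscle, did not exceed 20.6 and 10.8 CPM in any class, below Cox6b1 and Cox7a2, their widespread counterparts, in each of the classes. In macrophage-like cells Cox6b1 was at 369 and 416 CPM and Cox7a2 at 303 and 361 CPM.

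Promoters are shown for genes with contrasting patterns: Cox6a1, present in all classes, Cox8a, a subunit with a narrow gap in neutrophil-like cells, and Ndufaf7, which was higher there. Each sequence runs from 250 bases before to 50 bases after a gene's start in RefSeq, build GRCm38.p6, and is written 5′ to 3′ on the strand of the gene. Capitals mark GCGCATGCGC, which is the half-site GCGCA of nuclear respiratory factor 1 (NRF1) followed by its reverse complement, and CCGGAAG, a word of ETS factors such as GABP, on either strand (the second then reads CTTCCGG). The words do not overlap each other.

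Cox6a1, chr5:115348909-115349208, minus strand: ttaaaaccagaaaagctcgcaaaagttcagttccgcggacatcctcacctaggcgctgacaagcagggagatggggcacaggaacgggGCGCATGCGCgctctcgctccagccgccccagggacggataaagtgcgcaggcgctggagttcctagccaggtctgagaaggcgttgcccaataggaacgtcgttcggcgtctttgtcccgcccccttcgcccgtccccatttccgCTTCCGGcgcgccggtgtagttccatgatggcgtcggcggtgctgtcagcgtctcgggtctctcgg

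Cox8a, chr19:7217567-7217866, minus strand: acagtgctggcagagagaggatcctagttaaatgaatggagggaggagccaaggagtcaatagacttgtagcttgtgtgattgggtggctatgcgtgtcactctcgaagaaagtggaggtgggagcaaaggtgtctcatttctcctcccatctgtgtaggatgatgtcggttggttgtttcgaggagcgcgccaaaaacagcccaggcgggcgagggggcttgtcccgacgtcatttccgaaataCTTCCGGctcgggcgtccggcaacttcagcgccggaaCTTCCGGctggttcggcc

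Ndufaf7, chr17:78936885-78937184, plus strand: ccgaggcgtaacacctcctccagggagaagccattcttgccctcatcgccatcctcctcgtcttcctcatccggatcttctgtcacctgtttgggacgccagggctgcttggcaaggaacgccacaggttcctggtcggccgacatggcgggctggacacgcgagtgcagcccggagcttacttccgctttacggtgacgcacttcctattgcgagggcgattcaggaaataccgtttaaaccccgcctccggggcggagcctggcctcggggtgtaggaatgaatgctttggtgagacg

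The window of Cox6a1 held 1 NRF1 and 1 ETS word, that of Cox8a 2 ETS words and that of Ndufaf7 neither. RefSeq windows matched 75 of the 94 nuclear members, and none was matched for Cox6a2. Of these 7 (9.33%) held the NRF1 word, against 1.07% of the 27025 genes with a window, and 19 (25.3%) held the ETS word, against 9.93%. The 7 with the NRF1 word were Cox6a1, Atp5g2, Atp5k, Uqcrc1, Ndufa11, Ndufaf4 and Ndufaf5. Their median log2 ratio of neutrophil-like to macrophage-like cells was -2.96 under control IgG and -1.85 under anti-CD3L1, and that of the members without the word -2.04 and -1.25. Members with the ETS word stood at -1.62 and -1.21 and those without at -2.36 and -1.43. These are descriptions of letters in a window and show no binding.

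Between the treatments, the nuclear sum differed by less than 1.5-fold in macrophage-like, monocyte-like and NK-like cells. The nuclear sum was 1.52% under control IgG and 1.67% under anti-CD3L1 in macrophage-like cells (log2 ratio 0.13, 0.12 to 0.14), and this ratio was 0.12 under TMM scaling. In monocyte-like cells the sum was 1.65% and 1.72% (log2 ratio 0.064), and in NK-like cells 1.61% and 1.70% (log2 ratio 0.080). The direction in both of these classes depended on the scaling, since under TMM the log2 ratios were -0.19 and -0.064. In neutrophil-like cells the nuclear sum was 0.472% and 0.734% (log2 ratio 0.64, 0.61 to 0.66), which became -0.021 under TMM. Of the smaller classes, cDC1-like, cDC2-like and mature DC-like cells had log2 ratios of 0.29, 0.26 and 0.28, positive under every other setting. The ratio was 0.16 in ILC-like and 0.088 in pDC-like cells. Over the other settings it fell to 4.1e-05 and -0.086 there. These classes had few cells under control IgG. The median of all genes was itself shifted between the libraries by 0.69 (log2) in neutrophil-like, 0.27 in monocyte-like, 0.15 in NK-like and 0.02 in macrophage-like cells. Relative to that median, the median of the nuclear members was higher by 0.16 in neutrophil-like and by 0.09 in macrophage-like cells, and lower, at -0.16 in monocyte-like and -0.08 in NK-like cells. Genes at 0 UMIs in 1 library were set to 3 counts, which raises them most where the class holds fewer UMIs. In neutrophil-like cells this was the anti-CD3L1 library. Among genes with at least 500 UMIs over both libraries the median was 0.41 in neutrophil-like and 0.18 in monocyte-like cells. It was 0.10 in NK-like and 0.012 in macrophage-like cells. The part of the setting to 3 counts in the 0.16 was not tested.

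The cells behind each class were not alike in the libraries. In a clustering made without the members, each cluster is named by its number and by its leading genes, chosen after seeing the data. The leading genes compare all cells of the cluster, of any class, with the cells of the class in other clusters. Of neutrophil-like cells, clusters 2 (Gm2245, F630028O10Rik, Dusp6), 4 (Gbp5, Csf3, F3) and 7 (Ngp, Cd177, Ly6g) held 39.2%, 22.9% and 21.4% under control IgG but 2.26%, 0.523% and 12.7% under anti-CD3L1. Clusters 11 (BC018473, Nceh1, Zfp36l2) and 12 (BC018473, Rsad2, Slfn5) held 6.46% and 7.57%, against 38.0% and 35.4%. Of monocyte-like cells, cluster 5 (Saa3, St18, Cxcl3) held 716 of 1299 under control IgG and 90 of 3099 under anti-CD3L1, and cluster 1 (C1qa, C1qc, C1qb) 10.4% and 44.2%. Of macrophage-like cells, cluster 5 held 29.6% and 0.172%, and cluster 0 (Atp6v0d2, Gpnmb, F7) 8.23% and 44.2%.

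Within clusters that held at least 50 cells of a class in each library, the nuclear sum was higher under anti-CD3L1 in 2 of 2 clusters of macrophage-like cells, with log2 ratios of 0.28 in cluster 0 and 0.12 in cluster 6. In monocyte-like cells it was higher in 3 of 4, with log2 ratios of 0.11, 0.087 and 0.13 in clusters 1, 3 and 10, and lower in cluster 5 (-0.095, -0.12 to -0.067). In neutrophil-like cells the log2 ratio was 0.49 in cluster 7, 0.12 in cluster 12 and 0.053 (-0.032 to 0.14) in cluster 11, each below the 0.64 of the whole class. These 3 clusters held 2012 of the 5680 neutrophil-like cells under control IgG and 494 of the 574 under anti-CD3L1, so most neutrophil-like cells under control IgG were in no cluster that could be compared.

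Few single members passed 1.5-fold in macrophage-like, monocyte-like and NK-like cells. In neutrophil-like cells 60 of the 89 nuclear members that passed the filter of 20 UMIs were higher under anti-CD3L1 by over 1.5-fold, where 54.7% of all genes were, and 1 was lower, where 6.86% of all genes were. The first count fell to 16 under TMM and to 29 without cells of over 2 times the median UMIs of their class. For these settings neither the share of all genes nor the lower members were counted, and nothing is read from the fall. TMM lowered each log2 ratio in these cells by 0.66, and 4 of the 89 members were below 0 before it. Before scaling, the 1 lower member was Ndufaf7 (log2 ratio -1.44, -2.04 to -0.89). In macrophage-like cells 1 of 90 was higher and 2 were lower, against 14.3% and 11.5% of all genes. In monocyte-like cells 4 of 90 were higher and 2 lower, against 26.7% and 6.07%. In NK-like cells 2 of 88 were higher and 2 lower, against 18.5% and 6.37%. Among genes with at least 500 UMIs over both libraries 7.03% were higher and 5.85% lower in macrophage-like cells, where 0 of 82 nuclear members were either. In neutrophil-like cells 39.1% of such genes were higher and 7.13% lower before scaling by TMM. Of the 67 nuclear members among them 42 were higher and 1 lower. In macrophage-like cells the members past the limit were Cox6a2 (higher), Cox4i2 and Cox6b2 (lower), each under 10 CPM in both libraries. The smaller classes had few cells under control IgG. Of their nuclear members with at least 500 UMIs, 6 of 48 were higher in cDC1-like and 9 of 41 in cDC2-like cells. Of all such genes 9.14% and 9.33% were. In mature DC-like, pDC-like and ILC-like cells 4 of 15, 1 of 10 and 0 of 14 were higher, against 14.0%, 12.1% and 7.38%. In each of these classes 0 were lower.

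**Figure D4:**
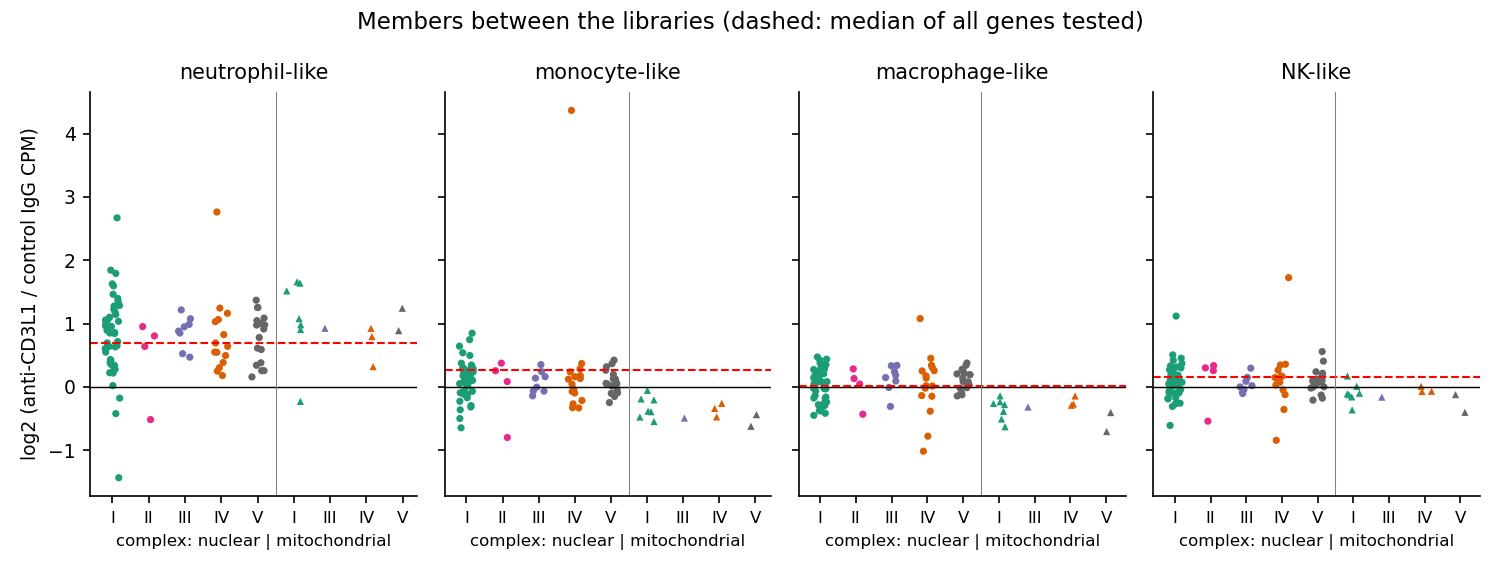
Log2 ratio of CPM in the anti-CD3L1 over the control IgG library for each member with at least 20 UMIs, by class (panels) and complex (horizontal axis; nuclear members left of the grey line, mitochondrial genes right of it, horizontal scatter within a column has no meaning); the dashed red line is the median of all genes tested. In monocyte-like and macrophage-like cells 13 of 13 mitochondrial genes lie below 0, while nuclear members scatter around it.

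Among members with a mean of at least 50 CPM over the libraries, the highest log2 ratios in macrophage-like cells were those of Ndufa12, an accessory subunit of complex I, from 78.8 CPM under control IgG to 109 CPM under anti-CD3L1 (log2 ratio 0.47, 0.35 to 0.59), and Cox4i1, from 718 to 980.1 CPM (0.45, 0.41 to 0.49). Ndufa11, Ndufb7 and Ndufs6, further accessory subunits of complex I, followed at 0.44, 0.42 and 0.38. These 5 genes also had positive log2 ratios in monocyte-like cells, from 0.24 for Ndufb7 to 0.85 for Ndufa12, beside 0.27 for the median of all genes there. Of the 5 lowest log2 ratios, 4 were those of mitochondrial genes and the fifth that of Ndufc2, from 159 to 116 CPM (-0.45, -0.54 to -0.36), which in monocyte-like cells was at 107 and 102 CPM. Apart from these, Sdhd, a membrane anchor of complex II, was lower under anti-CD3L1 in all of the 4 larger classes, with log2 ratios of -0.52 in neutrophil-like, -0.80 in monocyte-like, -0.43 in macrophage-like and -0.54 in NK-like cells. Its interval held 0 in neutrophil-like cells (-1.14 to 0.04), and it was singled out after its values were seen. The other complex II genes Sdha, Sdhb and Sdhc had positive log2 ratios in these classes before scaling by TMM, although the intervals of Sdha in macrophage-like cells (-0.09 to 0.18) and of Sdhc in macrophage-like, monocyte-like and NK-like cells held 0. Ndufb1-ps had negative log2 ratios in the same 4 classes, from -0.65 in monocyte-like to -0.18 in neutrophil-like cells, where its interval also held 0.

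In neutrophil-like cells the 5 highest log2 ratios among members of at least 50 CPM were those of mt-Nd1 (93.6 and 295 CPM, log2 ratio 1.66), mt-Nd2 (84.0 and 261 CPM, 1.64), Atp5g2 (31.6 and 81.5 CPM, 1.37), Atp5h (55.6 and 132 CPM, 1.25) and Ndufa4 (40.9 and 96.7 CPM, 1.24). Atp5g2 encodes a subunit of the proton-carrying ring and Atp5h one of the stalk of complex V, and Ndufa4 a subunit now assigned to complex IV. The lowest log2 ratios were those of Ndufb1-ps, Atp5md, Cox6b1, Ndufa3 and Ndufa7, from -0.18 to 0.22. The 5 lowest were below the median of all genes in these cells, 0.69, and the 5 highest above it.

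For the other genes of mitochondrial energy metabolism, counts of those past 1.5-fold stand beside 54.7% higher and 6.86% lower of all genes in neutrophil-like cells, and 14.3% and 11.5% in macrophage-like cells. In neutrophil-like cells 60 of 77 mitochondrial ribosomal protein genes that passed the filter were higher under anti-CD3L1 by over 1.5-fold and 1 was lower, with a median log2 ratio of 0.97, and in macrophage-like cells 1 of 78 was higher and 1 lower, with a median of 0.08. Of 14 citric acid cycle genes 11 were higher in neutrophil-like cells (median 0.87), while in macrophage-like cells 0 were higher and 2 lower, Idh3a and Suclg2 (median -0.09). Of the further assembly factors 17 of 29 were higher and 1 lower in neutrophil-like cells (0.84), and 1 of 31 was higher and 1 lower in macrophage-like cells (-0.042). The electron carriers had 6 of 9 higher and 1 lower (0.85), against 1 of 10 each way (-0.086). Of the regulators 7 of 13 were higher and 2 lower (0.68), and of the carriers, uncouplers and supercomplex factors 4 of 10 were higher and 2 lower (0.45). In macrophage-like cells 0 of 15 regulators were higher or lower, and 0 of the 12 carriers, uncouplers and supercomplex factors were higher and 1 lower. The shares of the last 4 lists in neutrophil-like cells were near the 54.7% of all genes or below it, and nothing is read from them.

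The mitochondrial genes were lower under anti-CD3L1 in macrophage-like and monocyte-like cells, all of them by sign and few by over 1.5-fold. Their sum was 1.80% under control IgG and 1.47% under anti-CD3L1 in macrophage-like cells (log2 ratio -0.29, -0.30 to -0.28). In monocyte-like cells it was 1.83% and 1.41% (log2 ratio -0.38, -0.38 to -0.37), and in NK-like cells 1.85% and 1.75% (log2 ratio -0.083). None of these directions changed under TMM scaling, where the log2 ratios were -0.30, -0.63 and -0.23. Within clusters the log2 ratio was -0.31 and -0.30 in clusters 0 and 6 of macrophage-like cells, and -0.40, -0.38, -0.38 and -0.24 in clusters 1, 3, 5 and 10 of monocyte-like cells. Each of the 13 genes had a negative log2 ratio in macrophage-like cells, from -0.71 to -0.14, and in monocyte-like cells, from -0.62 to -0.06, and 10 of 13 did in NK-like cells. Past 1.5-fold, 2 of 13 were lower in macrophage-like, 1 of 13 in monocyte-like and 0 of 13 in NK-like cells. Of all genes 11.5%, 6.07% and 6.37% were lower there, and nothing is read from these counts. Of the smaller classes, cDC1-like, cDC2-like and pDC-like cells had negative log2 ratios of the sum as well (-0.26, -0.14 and -0.29), mature DC-like cells were at -0.086 with the opposite sign after thinning (0.14), and ILC-like cells were at 0.069 with the opposite sign under TMM (-0.087).

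The largest difference was that of mt-Atp8, a small subunit of the membrane part of the ATP synthase, at 95.9 and 58.7 CPM in macrophage-like cells (-0.71, -0.82 to -0.59) and 96.3 and 62.5 CPM in monocyte-like cells (-0.62). In macrophage-like cells mt-Nd3 and mt-Nd4l, core subunits of complex I, came next, with log2 ratios of -0.63 and -0.51, and in monocyte-like cells they were at -0.55 and -0.39. For mt-Atp6, whose RNA also carries mt-Atp8, the levels were 3695 and 2787 CPM in macrophage-like cells (-0.41). For mt-Cytb, the mitochondrial subunit of complex III, they were 1207 and 967 CPM (-0.32), and for mt-Co1 of complex IV 3653 and 3027 CPM (-0.27). The log2 ratios of mt-Nd4, mt-Nd5, mt-Nd2, mt-Nd6, mt-Co2 and mt-Co3 lay between those of mt-Atp6 and mt-Nd1. At the other end mt-Nd1 was at 812 and 736 CPM (-0.14, -0.18 to -0.10).

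The ratio of nuclear to mitochondrial UMIs does not depend on the scaling of the libraries. It was 0.849 (0.843 to 0.855) under control IgG and 1.13 (1.13 to 1.14) under anti-CD3L1 in macrophage-like cells, and 0.897 and 1.22 in monocyte-like cells. In NK-like cells it was 0.867 and 0.971, in ILC-like cells 0.744 and 0.795, in cDC1-like cells 0.891 and 1.30, in cDC2-like cells 0.891 and 1.18, and in mature DC-like cells 0.921 and 1.19. It was lowest in pDC-like cells, at 0.470 and 0.612. In these 8 classes the ratio was higher under anti-CD3L1, and only neutrophil-like cells had a lower one, at 1.19 and 1.07. Within clusters it was higher in 2 of 2 clusters of macrophage-like, 4 of 4 of monocyte-like and 1 of 3 of neutrophil-like cells. Under 10 other settings the ratio of macrophage-like cells stayed between 0.733 and 0.849 under control IgG and between 1.01 and 1.14 under anti-CD3L1. The libraries did not overlap, although the setting over non-mitochondrial UMIs changes only the total and could not move this ratio. Free RNA in empty droplets had more nuclear than mitochondrial UMIs, with ratios of 1.74 and 1.60.

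In neutrophil-like cells the direction of the mitochondrial genes depended on how cells were weighted and on the cluster. Their summed mitochondrial share was 0.397% under control IgG and 0.688% under anti-CD3L1 (log2 ratio 0.79, 0.77 to 0.82). The log2 ratio was -0.013 (-0.12 to 0.089) within cluster 7, 0.42 within cluster 11 and 0.15 within cluster 12. The median share per cell went the other way, from 0.247% to 0.160%. In the anti-CD3L1 library the tenth of cells with the most mitochondrial UMIs held 71.9% of them, against 51.9% under control IgG and 24.4% and 23.2% in macrophage-like cells. No mitochondrial UMI was found in 53 of the 574 cells under anti-CD3L1 and in 57 of the 5680 cells under control IgG. Limited to cells of 1000 to 3000 UMIs, 694 under control IgG and 397 under anti-CD3L1, the log2 ratio of the mitochondrial sum was -0.37. The nuclear sum kept its direction here, with median shares per cell of 0.358% and 0.432% and a log2 ratio of 0.19 at matched depth, beside 0.27 for the medians, but turned under TMM as given above. By the medians, the nuclear to mitochondrial ratio of neutrophil-like cells was 1.45 and 2.69, also higher under anti-CD3L1. Doublets were kept, and without cells of more than 2 times the median UMIs of their class the mitochondrial log2 ratio was 0.40.

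Over all cells together the nuclear sum was 1.06% under control IgG and 1.67% under anti-CD3L1, and the mitochondrial sum 1.11% and 1.49%. Neutrophil-like cells took 49.1% of all UMIs under control IgG and 1.74% under anti-CD3L1. With the levels under control IgG and the class shares under anti-CD3L1 the nuclear sum came to 1.56% and the mitochondrial sum to 1.77%. Without neutrophil-like cells the sums were 1.62% and 1.69% for nuclear and 1.80% and 1.51% for mitochondrial genes.

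The limit on mitochondrial UMIs used to choose cells removed 559 barcodes (6.13%) under control IgG and 1623 (12.6%) under anti-CD3L1, and it acts on the measured genes themselves. Macrophage-like and monocyte-like barcodes above the limit were poor in nuclear members. The 38 neutrophil-like ones under control IgG were not, with 2.43% against 0.474% below the limit. Under anti-CD3L1 the 21 neutrophil-like ones were lower, with 0.512% against 0.740%. In macrophage-like cells under control IgG the nuclear sum was 0.658% above and 1.53% below the limit, and in monocyte-like cells 0.486% and 1.65%. In the anti-CD3L1 library it was 0.823% and 1.67% in macrophage-like cells and 0.645% and 1.72% in monocyte-like cells. Barcodes above the limit also held few UMIs, with medians of 2690.0 and 1370.0 in macrophage-like cells. When the limit was dropped, the mitochondrial sum of macrophage-like cells became 2.04% under control IgG and 1.63% under anti-CD3L1 (log2 ratio -0.32), and the lower level under anti-CD3L1 remained.

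**Figure D5:**
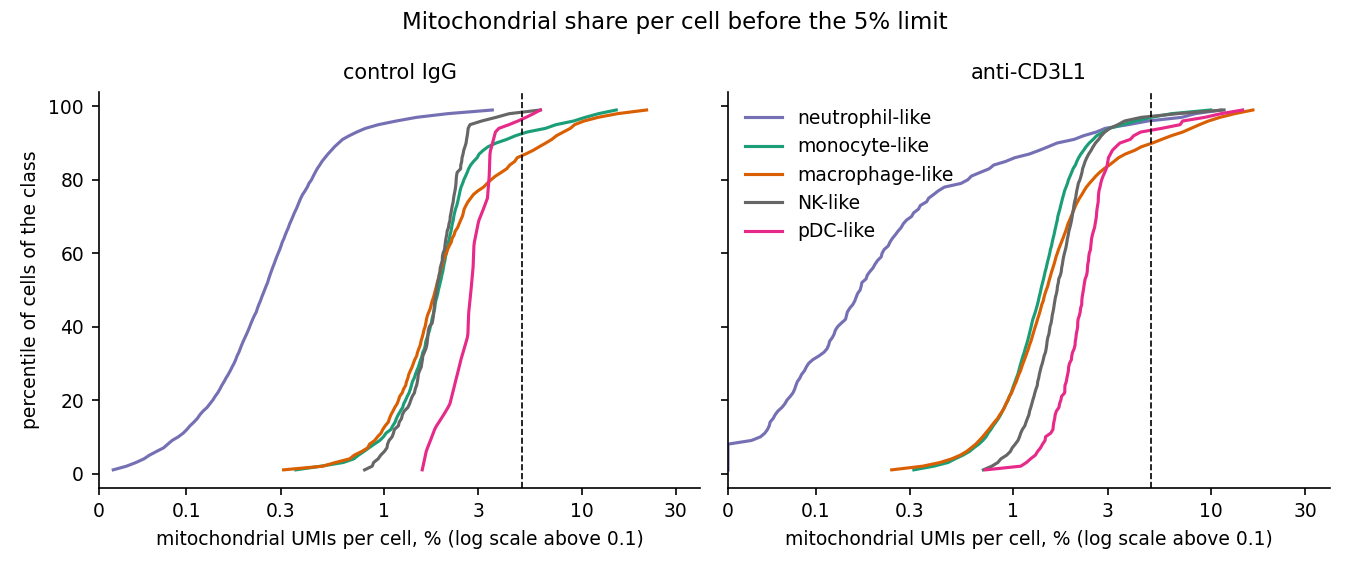
Percentage of mitochondrial UMIs per cell (horizontal, logarithmic above 0.1) against the percentile of cells of 5 classes (vertical), in the control IgG (left) and anti-CD3L1 (right) libraries, before the limit of 5% (dashed) was applied. The curve of neutrophil-like cells lies far to the left of the others and has a long upper tail under anti-CD3L1, and 3.01% to 13.3% of macrophage-like and monocyte-like cells lie beyond the limit.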

How the data were processed

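RNA of CD45 bead-sorted cells was measured in 2 libraries, 1 per treatment. UMI counts of every gene in every barcode, with no choice of cells, were deposited as the authors obtained them from Cell Ranger 7.1.0, and the submitters' processing notes also name Seurat 5.1.0 and the build GRCm39. A deposited table of the authors' own macrophage comparison (fold changes, shares of cells and p-values) was not used. Members and lists were chosen with earlier results of these data known.

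Everything else was computed from these counts with Python 3.11.15, numpy 2.4.6, scipy 1.17.1 and pandas 2.3.3, and figures with matplotlib 3.10.9. Each cell was scored for 15 marker lists: log-normalized values were divided by the 75th percentile over positive cells, limited to 1 and averaged. The highest score gave the class where at least 2 markers were detected and the margin to the next score was 0.05, and other cells, 661 and 1578, stayed unassigned. The classes are rebuilt and may differ from those of the study. Doublets were kept. Levels are sums of UMIs over a class, divided by its total. Intervals are exact Poisson for levels and exact binomial for ratios and shares of cells. A count of 0 was set to 3 counts, per class and library, in ratios. A ratio was counted past 1.5-fold where a gene had at least 20 UMIs over both sides. Scaling factors for alternatives came from edgeR 4.0.16 (TMM) and DESeq2 1.42.0 (median of ratios) under R 4.3.3, and no count model was fitted. Only the ratios and their intervals were tested on simulated data, with known changes drawn at the totals of macrophage-like cells. The gate, the clusters and the scaling were not tested in this way.

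Genes named are the mitochondrial genes, the 2 nuclear members with most UMIs per complex, isoforms known from single tissues, the 5 highest and 5 lowest log2 ratios between libraries in macrophage-like and neutrophil-like cells and, per class, the member with the largest fold over the other classes in both libraries. Others were named after their values were seen. Promoters came from RefSeq, build GRCm38.p6, and no coordinates of the count tables were used.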

Additional observations from a re-analysis of the deposited data

Results flagged for a closer look

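The mitochondrial sum moved in opposite directions between the treatments in different classes. With anti-CD3L1 against control IgG, its log2 ratio was 0.79 in neutrophil-like cells, against -0.29 in macrophage-like, -0.38 in monocyte-like and -0.083 in NK-like cells. With 1 library per treatment this difference was not tested. The median share per cell of neutrophil-like cells had the opposite sign, -0.62.

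Mitochondrial UMIs were also found in barcodes that the comparisons left out. The limit of 5% removed 6.13% of the barcodes that passed the other filters under control IgG and 12.6% under anti-CD3L1.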

How the results depend on the processing

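No paired analysis was possible because each treatment is 1 library. For the same reason leaving out a replicate was not possible, and the spread between tumors is unknown. Depth limits the rare isoforms and the smaller classes: under control IgG 11 to 45 cells stood for each of the dendritic and ILC-like classes. For neutrophil-like, macrophage-like, monocyte-like and NK-like cells, values that moved by more than their counting interval, or changed direction, are given below for each setting. For the other classes only changes of direction are given, and moves in the same direction are left out. For example, the mitochondrial log2 ratio of cDC1-like cells, -0.26, ranged from -0.72 to -0.030 over the other settings. The cause of the moves was not tested. Some dendritic classes gave no value with graph clusters. The settings with cells of 1000 to 3000 UMIs (neutrophil-like cells only) and with the median of per-cell shares, the values within clusters and the folds with classes at 0 set to 3 counts were chosen after seeing the data. Of the values that answer a comparison 116 were counted as unchanged, 153 as moved and 9, all log2 ratios of sums, as changed in direction. Counts of members have no counting interval, so for them unchanged does not mean within an interval. In neutrophil-like cells only members higher under anti-CD3L1 were counted, and in the other classes members past the limit either way. No share of all genes stands beside these counts under the other settings, and nothing is read from them. Nuclear to mitochondrial ratios were counted as moved even where their order between the libraries turned. This was so in neutrophil-like cells with graph clusters, at 1.09 under control IgG and 1.11 under anti-CD3L1.

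With a mitochondrial limit of 10%, the nuclear log2 ratio between libraries was 0.59 in neutrophil-like cells and 0.14 in macrophage-like cells. The mitochondrial one was 0.85 in neutrophil-like cells, -0.32 in macrophage-like cells, -0.39 in monocyte-like cells and -0.12 in ILC-like cells. Neutrophil-like over macrophage-like, the nuclear log2 ratio was -1.62 under control IgG. The nuclear to mitochondrial ratio was 1.12 and 0.935 in neutrophil-like cells, 0.773 and 1.06 in macrophage-like cells, 0.862 and 1.19 in monocyte-like cells and 0.85 and 0.957 in NK-like cells. Without a mitochondrial limit, the nuclear log2 ratio between libraries was 0.58 in neutrophil-like cells and 0.076 in monocyte-like cells. Mitochondrial values were 1.07 in neutrophil-like cells, -0.32 in macrophage-like cells, -0.43 in monocyte-like cells, -0.062 in NK-like cells and -0.064 in ILC-like cells. The neutrophil-like to macrophage-like value was -1.61 under control IgG. Nuclear to mitochondrial ratios were 1.02 and 0.727 in neutrophil-like cells, 0.733 and 1.01 in macrophage-like cells, 0.824 and 1.17 in monocyte-like cells and 0.85 and 0.936 in NK-like cells. With 3 markers required of a class, the nuclear log2 ratio between libraries was 0.56 in neutrophil-like cells and 0.14 in macrophage-like cells. That of the mitochondrial sum was 0.72 in neutrophil-like cells and -0.39 in monocyte-like cells. Between neutrophil-like and macrophage-like cells it was -1.78 under control IgG and -1.36 under anti-CD3L1. Nuclear UMIs per mitochondrial UMI were 1.16 in neutrophil-like cells (control IgG library) and 1.24 in monocyte-like cells (anti-CD3L1 library). With a margin of 0.2 between class scores, the nuclear log2 ratio between libraries was 0.51 in neutrophil-like cells, 0.16 in macrophage-like cells, 0.051 in monocyte-like cells and 0.11 in NK-like cells. For mitochondrial genes it was 0.57 in neutrophil-like cells, -0.31 in macrophage-like cells, -0.40 in monocyte-like cells and -0.13 in NK-like cells. For neutrophil-like over macrophage-like cells it was -1.91 under control IgG and -1.56 under anti-CD3L1. The ratio of nuclear to mitochondrial UMIs was 1.17 and 1.13 in neutrophil-like cells, 0.812 and 1.12 in macrophage-like cells, 1.23 in monocyte-like cells (anti-CD3L1 library) and 1.03 in NK-like cells (anti-CD3L1 library). The number of nuclear members past the limit was 1 in macrophage-like cells. With graph clusters in place of the marker gate, the nuclear log2 ratio between libraries was 0.85 in neutrophil-like cells, 0.24 in macrophage-like cells, -0.067 in monocyte-like cells and 0.10 in NK-like cells. The mitochondrial one was 0.83 in neutrophil-like cells, -0.37 in macrophage-like cells, -0.36 in monocyte-like cells, -0.035 in NK-like cells and -0.028 in ILC-like cells. Neutrophil-like over macrophage-like, the nuclear log2 ratio was -1.67 under control IgG and -1.06 under anti-CD3L1. The nuclear to mitochondrial ratio was 1.09 and 1.11 in neutrophil-like cells, 0.75 and 1.14 in macrophage-like cells, 0.979 and 1.2 in monocyte-like cells and 0.846 and 0.931 in NK-like cells. Nuclear members past the limit numbered 3 in monocyte-like cells. Without cells of over 2 times the median UMIs of their class, the nuclear log2 ratio between libraries was 0.23 in neutrophil-like cells. Mitochondrial values were 0.40 in neutrophil-like cells, -0.39 in monocyte-like cells and -0.11 in NK-like cells. The neutrophil-like to macrophage-like value was -1.98 under control IgG and -1.89 under anti-CD3L1. Nuclear to mitochondrial ratios were 1.24 in neutrophil-like cells (control IgG library), 0.889 in monocyte-like cells (control IgG library) and 0.816 and 0.926 in NK-like cells. Members higher by more than the limit were 29 in neutrophil-like cells. Under TMM scaling, the nuclear log2 ratio between libraries was -0.021 in neutrophil-like cells, 0.12 in macrophage-like cells, -0.19 in monocyte-like cells, -0.064 in NK-like cells and -0.077 in pDC-like cells. That of the mitochondrial sum was 0.14 in neutrophil-like cells, -0.30 in macrophage-like cells, -0.63 in monocyte-like cells, -0.23 in NK-like cells and -0.087 in ILC-like cells. The count of members higher by more than the limit was 16 in neutrophil-like cells. Under the median of ratios, the nuclear log2 ratio between libraries was -0.039 in neutrophil-like cells, 0.12 in macrophage-like cells, -0.21 in monocyte-like cells, -0.067 in NK-like cells and -0.086 in pDC-like cells. For mitochondrial genes it was 0.12 in neutrophil-like cells, -0.30 in macrophage-like cells, -0.65 in monocyte-like cells, -0.23 in NK-like cells and -0.095 in ILC-like cells. The number of nuclear members higher by more than the limit was 13 in neutrophil-like cells. After thinning to 1000 UMIs, the nuclear log2 ratio between libraries was 0.41 in neutrophil-like cells, 0.16 in macrophage-like cells, 0.083 in monocyte-like cells, 0.13 in NK-like cells and -0.026 in pDC-like cells. The mitochondrial one was 0.41 in neutrophil-like cells, -0.35 in monocyte-like cells and 0.14 in mature DC-like cells. Between neutrophil-like and macrophage-like cells it was -1.83 under control IgG and -1.59 under anti-CD3L1. Nuclear UMIs per mitochondrial UMI were 1.24 and 1.23 in neutrophil-like cells, 0.762 and 1.04 in macrophage-like cells, 0.859 and 1.16 in monocyte-like cells and 0.779 and 0.898 in NK-like cells. Nuclear members past the limit numbered 32 in neutrophil-like cells (higher only), and 10 in macrophage-like and 19 in NK-like cells (either way). By the mean of the shares per cell, the nuclear log2 ratio between libraries was 0.40 in neutrophil-like cells, 0.15 in macrophage-like cells and 0.074 in monocyte-like cells. Mitochondrial values were 0.35 in neutrophil-like cells, -0.28 in macrophage-like cells, -0.36 in monocyte-like cells and 0.17 in mature DC-like cells. For neutrophil-like over macrophage-like cells it was -1.84 under control IgG and -1.58 under anti-CD3L1. With free RNA taken as 10% of each class and subtracted, the nuclear log2 ratio between libraries was 0.72 in neutrophil-like cells, 0.092 in macrophage-like cells, 0.022 in monocyte-like cells and 0.039 in NK-like cells. That of the mitochondrial sum was 0.85 in neutrophil-like cells, -0.35 in macrophage-like cells, -0.44 in monocyte-like cells and -0.12 in NK-like cells. Neutrophil-like over macrophage-like, the nuclear log2 ratio was -2.08 under control IgG and -1.46 under anti-CD3L1. The ratio of nuclear to mitochondrial UMIs was 1.04 and 0.951 in neutrophil-like cells, 0.805 and 1.09 in macrophage-like cells, 0.856 and 1.18 in monocyte-like cells and 0.825 and 0.923 in NK-like cells. By the median of the shares per cell, the nuclear log2 ratio between libraries was 0.27 in neutrophil-like cells, 0.18 in macrophage-like cells and 0.042 in monocyte-like cells. For mitochondrial genes it was -0.62 in neutrophil-like cells, -0.28 in macrophage-like cells, -0.42 in monocyte-like cells, -0.16 in NK-like cells and 0.27 in mature DC-like cells. The neutrophil-like to macrophage-like value was -1.96 under control IgG and -1.87 under anti-CD3L1. In neutrophil-like cells of 1000 to 3000 UMIs, the nuclear log2 ratio between libraries was 0.19 in neutrophil-like cells. The mitochondrial one was -0.37 in neutrophil-like cells. With a limit of 2-fold, the number of nuclear members past the limit was 31 in neutrophil-like cells (higher only). It was 1 in monocyte-like and 2 in NK-like cells (either way). Over non-mitochondrial UMIs, the nuclear log2 ratio of neutrophil-like to macrophage-like cells was -1.71 under control IgG.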
